A study of Mus musculus with 6 samples.

Results

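Cyclins are the regulatory subunits of the cyclin-dependent kinases, and their rise and fall orders the cell cycle. D-type cyclins (Ccnd1, Ccnd2, Ccnd3) respond to mitogens and, with Cdk4 or Cdk6, phosphorylate the retinoblastoma protein in G1. E-type cyclins (Ccne1, Ccne2) act with Cdk2 at the entry into S phase, cyclin A2 (Ccna2) acts through S phase and G2, and the B-type cyclins (Ccnb1, Ccnb2) activate Cdk1 for mitosis, while cyclin F (Ccnf) is the substrate-binding part of a ubiquitin ligase. In neural progenitors, cyclin D2 is known for its part in the proliferation of progenitors that give rise to neurons. These 9 genes were looked up by symbol in the array's probe annotation, and 6 of them, Ccnd2, Ccnd3, Ccne1, Ccne2, Ccna2 and Ccnb2, had 1 probe each, out of 16384 named genes on the array. Ccnd1, Ccnb1 and Ccnf had no probe under that symbol or an older one and were not analysed here.

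The cells were neural stem cells taken from newborn C57BL6 mouse brain (postnatal day 0), kept untreated in DMEM/F12 to which bFGF, EGF and heparin were added. They carried an Ecrg4 genotype given as homozygous (homo), heterozygous (hetero) or wild type (wt), with 2 arrays for each label. The labels do not say how the allele was altered, nor whether the arrays of a label came from separate animals or cultures. The p-values therefore reflect spread among arrays that may be technical alone. Intensities are in the authors' units, scaled to a median of 30 on every array, and their precision is limited by having 6 arrays. As a level of background, the 95th percentile of olfactory receptor probes lay between 50.5 and 57.6. All 6 cyclin probes exceeded it on all 6 arrays. Of 9 measured neural stem and progenitor markers, 8 exceeded it on all 6 arrays and 1, Prom1, stayed under it. The Ecrg4 probe read 1.4 and 1.3 in the homozygous arrays, 345.5 and 373.9 in the heterozygous arrays and 112.9 and 154.9 in the wild-type arrays. The homozygous label thus had the lowest reading, but the heterozygous arrays read higher than the wild-type arrays, so directions that involve those 2 groups are those of the arrays as labelled.

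The cyclin changes that passed the test lay between the homozygous and heterozygous arrays. The G1 cyclin gene Ccnd2 was 2.58-fold higher in homozygous than in heterozygous arrays, and the mitotic cyclin gene Ccnb2 was 2.16-fold lower. The S phase cyclin gene Ccna2 gave a fold of 0.966 in the same comparison, with a 95% interval of 0.754 to 1.24. These changes were tested with limma across all 20434 probes measured on every array, two-sided, with Benjamini-Hochberg adjustment and a threshold of 0.05. Of the 6 cyclins, 1 rose and 1 fell between homozygous and heterozygous, against 1.26% of all tested probes that rose and 1.43% that fell.

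**Figure D1:**
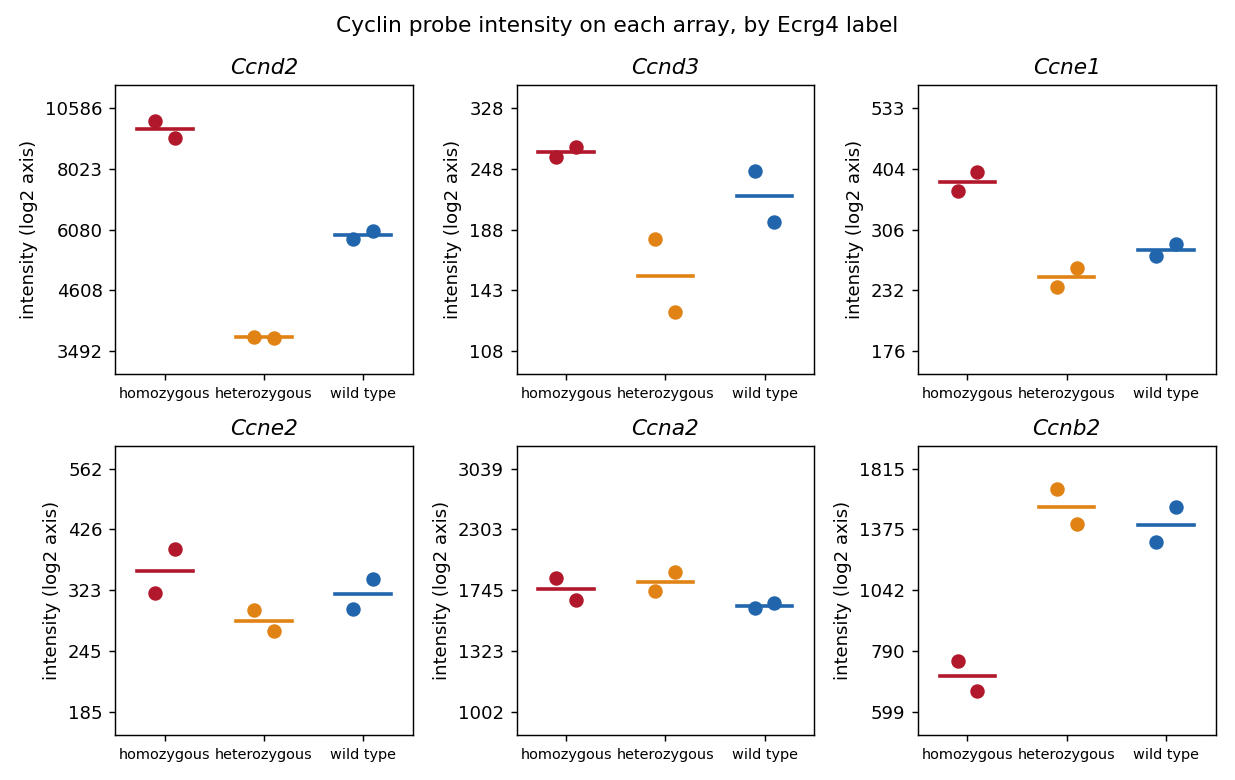
Intensity of each measured cyclin probe on each array (log2 axis, all panels spanning the same number of log2 units), with points for single arrays and a line at the geometric mean of the 2 arrays of a label. Ccnd2 lies highest in the homozygous and lowest in the heterozygous arrays, Ccnb2 lies lowest in the homozygous arrays, and the Ccna2 points lie between 1608.5 and 1893.8.

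Ccnd2 (chromosome 6, 127125162 to 127152188 in the GRCm38.p6 annotation of RefSeq), whose protein drives progression through G1, had intensities of 9966 and 9232 in homozygous arrays, 3731 and 3709 in heterozygous arrays and 5818 and 6042 in wild-type arrays. No array of one label overlapped another label, and the order was homozygous, wild type, heterozygous. The difference between homozygous and heterozygous was 1.37 ± 0.14 on the log2 scale (SE of the limma fit, n = 2 arrays each, adjusted p = 0.0113), with a 95% interval of the fold of 2.03 to 3.27. Of all tested probes, 1.97% differed by more in either direction. The steps between neighbours in the order did not pass: homozygous minus wild type was 0.69 ± 0.14 (limma adjusted p = 0.0866) and heterozygous minus wild type was -0.67 ± 0.14 (limma adjusted p = 0.139). The first step passed under 4 of 16 alternatives, among them cyclic loess scaling (0.85, limma adjusted p = 0.0490), and the second under 3, among them the fit without probes at background (limma adjusted p = 0.0363). The call between homozygous and heterozygous ended without either homozygous array (adjusted p = 0.114 and 0.107 without arrays 1 and 2) and without either heterozygous array (0.0715 and 0.0853), while the log2 difference stayed between 1.31 and 1.42.

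Ccnd3 (chromosome 17, 47505051 to 47599689), the D-type cyclin gene best known from lymphocytes, read 261.5 and 273.8 in homozygous arrays, 180.1 and 129.4 in heterozygous arrays and 246.2 and 195.1 in wild-type arrays. The order of the labels was that of Ccnd2, but the heterozygous and the wild-type pairs were spread more widely. Its log2 difference between homozygous and heterozygous was 0.81 ± 0.22 and did not pass (limma adjusted p = 0.124, n = 2 arrays each), with a 95% interval of the fold of 1.22 to 2.52. Between homozygous and wild type it was 0.29 ± 0.22, and between heterozygous and wild type -0.52 ± 0.22. The spread of Ccnd3 between arrays of 1 label, a residual SD of 0.24 on the log2 scale, was larger than that of Ccnd2, 0.05, and than the median of 0.19 over all tested probes.

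**Figure D2:**
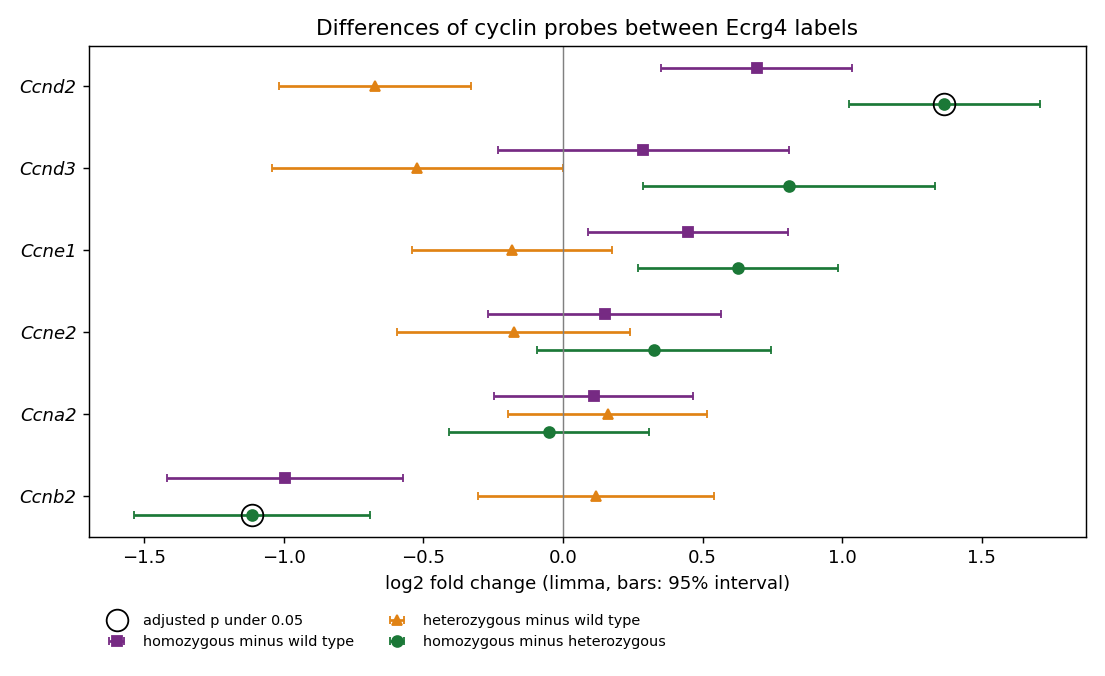
Log2 fold changes of the 6 measured cyclin probes in 3 comparisons, as limma estimates with 95% intervals; black rings mark an adjusted p under 0.05. Rings fall on Ccnd2 and Ccnb2 for homozygous minus heterozygous, and the intervals of Ccna2 include 0 in all 3 comparisons.

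Ccne1 (chromosome 7, 38097984 to 38107490), whose protein activates Cdk2 at the G1 to S transition, read 364.3 and 397.7 in homozygous arrays, 235.9 and 257.2 in heterozygous arrays and 271.3 and 287.4 in wild-type arrays. The homozygous arrays lay above all others, and the labels did not overlap. The log2 differences were 0.63 ± 0.15 between homozygous and heterozygous (limma adjusted p = 0.0944, n = 2 arrays each) and 0.45 ± 0.15 between homozygous and wild type (limma adjusted p = 0.192), and neither passed. The first of these passed under 4 of 16 alternatives, among them the fit without probes at background (limma adjusted p = 0.0233), and the second passed under none of them. Its paralogue Ccne2 (chromosome 4, 11190433 to 11204779) read 319.0 and 388.6 in homozygous arrays, 294.4 and 267.9 in heterozygous arrays and 296.9 and 339.3 in wild-type arrays. Homozygous and wild-type arrays overlapped, and the largest of its log2 differences, 0.33 ± 0.17 between homozygous and heterozygous, did not pass (limma adjusted p = 0.381).

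Ccna2 (chromosome 3, 36564865 to 36573038), the cyclin gene of S phase and G2, read 1844 and 1669 in homozygous arrays, 1742 and 1894 in heterozygous arrays and 1609 and 1644 in wild-type arrays. Homozygous and heterozygous arrays overlapped, and both lay above the wild-type arrays. The log2 differences were -0.05 ± 0.15 between homozygous and heterozygous (limma adjusted p = 0.891, n = 2 arrays each), 0.11 ± 0.15 between homozygous and wild type and 0.16 ± 0.15 between heterozygous and wild type. The sign of the first turned after quantile (0.054) and cyclic loess scaling (0.061). The 95% interval of the fold between homozygous and wild type was 0.842 to 1.38. It rests on a spread among arrays that may be technical alone, so it does not bound a difference between animals or cultures. Across the 6 arrays Ccna2 spanned 0.24 on the log2 scale, against 1.43 for Ccnd2 and 1.33 for Ccnb2.

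Ccnb2 (chromosome 9, 70407689 to 70421554), whose protein is a mitotic partner of Cdk1, read 755.2 and 658.3 in homozygous arrays, 1650 and 1409 in heterozygous arrays and 1298 and 1521 in wild-type arrays. Both homozygous arrays lay under all others, and the heterozygous and wild-type arrays overlapped. The log2 difference between homozygous and heterozygous was -1.11 ± 0.17 (limma adjusted p = 0.0339, n = 2 arrays each), with a 95% interval of 1.61-fold to 2.90-fold lower. Between homozygous and wild type the difference was nearly as large, -0.99 ± 0.17, and did not pass (limma adjusted p = 0.0685), whereas it passed after quantile scaling (-0.94, limma adjusted p = 0.0481) and after median centring (-1.05, 0.0366). Between heterozygous and wild type it was 0.12 ± 0.17 (limma adjusted p = 0.771). The call between homozygous and heterozygous ended with the replicate number as a block (limma adjusted p = 0.0798), with blank cells filled (0.0562), without either homozygous array (0.173 and 0.245 without arrays 1 and 2) and without either heterozygous array (0.150 and 0.123).

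Promoter sequence is shown for Ccnb2, which fell, and for Ccne1, which did not pass, because the promoters of mitotic and of G1 genes are known for different elements. Mitotic promoters are known for CCAAT boxes, bound by the factor NF-Y, and for the cell cycle genes homology region (CHR), bound by MuvB complexes. The windows come from RefSeq (GRCm38.p6) and run from 250 bases before to 20 bases after the annotated start, on the minus strand, at chr9:70421535-70421804 for Ccnb2 and chr7:38107471-38107740 for Ccne1. Capitals mark CCAAT and TTTGAA, read on both strands, in the Ccnb2 window, and GC boxes (GGGCGG or its complement CCGCCC) in the Ccne1 window.
Ccnb2: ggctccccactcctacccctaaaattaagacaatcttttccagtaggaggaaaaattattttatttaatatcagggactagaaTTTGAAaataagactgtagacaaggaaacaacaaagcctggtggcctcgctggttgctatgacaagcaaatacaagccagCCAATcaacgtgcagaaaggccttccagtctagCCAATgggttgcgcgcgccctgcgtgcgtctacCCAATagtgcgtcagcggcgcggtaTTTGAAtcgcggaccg
Ccne1: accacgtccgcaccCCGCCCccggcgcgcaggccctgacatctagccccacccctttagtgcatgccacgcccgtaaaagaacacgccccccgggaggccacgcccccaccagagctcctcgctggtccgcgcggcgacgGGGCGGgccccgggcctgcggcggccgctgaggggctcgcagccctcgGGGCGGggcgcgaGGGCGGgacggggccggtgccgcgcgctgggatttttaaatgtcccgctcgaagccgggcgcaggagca
The Ccnb2 window held 3 CCAAT boxes, whose first bases lay at -87, -54 and -21 from the start and thus 33 bases apart, and 2 TTTGAA matches, at -167 and at 5, counting the start itself as 1. Among 32851 promoter windows of 300 bases, 17.9% held TTTGAA on either strand, 37.4% held CCAAT and 3.37% held at least 3 CCAAT boxes. The Ccne1 window held 4 GC boxes, no CCAAT, no TTTGAA or TTCGAA, and none of the E2F forms TTTCGCGC, TTTGGCGC, TTTCCCGC and TTTGCCGC, which 2.26% of windows held. Other forms of the E2F site were not searched, so the window may hold one. GGGCGG was found in 35.7% of windows. The Ccnd3 windows, at 2 annotated starts, held 1 CCAAT and 4 GC boxes. Of the measured cyclins, 3 of 6 had a window, and a match is only a description of letters.

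Taken over the cyclins as a list, 5 of 6 had a log2 difference above 0 between homozygous and wild type, 2 of 6 between heterozygous and wild type and 4 of 6 between homozygous and heterozygous. The medians were 0.22, -0.18 and 0.48, against 0.02, -0.01 and 0.04 over all tested probes. Arrays of the 2 labels did not overlap for 5 of 6 cyclins in each comparison, but the same held for 50.5% of all tested probes between homozygous and wild type, 45.5% between heterozygous and wild type and 54.6% between homozygous and heterozygous. No cyclin passed the limma threshold between homozygous and wild type, where 0.431% of tested probes rose and 0.489% fell, and 3 of 6 had an unadjusted p under 0.05, as did 19% of all tested probes. None passed between heterozygous and wild type either, where 0.411% of probes rose and 0.338% fell, and 2 of 6 had an unadjusted p under 0.05, as did 13.5% of all tested probes. Between homozygous and heterozygous 4 of 6 did, against 18.2% of all tested probes. The moderated F test over the 3 labels passed for Ccnd2 (adjusted p = 0.0201) and Ccnb2 (adjusted p = 0.0484), against 2.26% of all tested probes. The comparisons share arrays, so their values are not independent of each other.

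The regulators of the cyclins were examined as 9 gene lists with 129 measured genes, of which 99 exceeded the olfactory receptor level on all arrays. Between homozygous and heterozygous 2 of the 129 passed, both with a fitted difference below 0, which is near the 1.43% of all tested probes that fell, and the median log2 difference over the 129 was -0.02. At an unadjusted p under 0.05 there were 21 of 129 between homozygous and wild type, 8 between heterozygous and wild type and 21 between homozygous and heterozygous, none of them a larger share than the 19%, 13.5% and 18.2% of all tested probes. The phosphatase gene Cdc25b, whose protein removes inhibitory phosphates from Cdk1, read 256.9 and 294.4 in homozygous arrays, 557.9 and 630.5 in heterozygous arrays and 342.3 and 401.1 in wild-type arrays. The labels did not overlap, and the log2 difference between homozygous and heterozygous was -1.11 ± 0.17 (limma adjusted p = 0.0319, n = 2 arrays each). That call ended in 6 of 16 alternatives, among them the replicate number as a block (adjusted p = 0.0537) and each of the fits without a homozygous or a heterozygous array (0.111 to 0.216). Wild-type arrays of Cdc25b lay between the other labels without overlap, whereas the heterozygous and wild-type arrays of Ccnb2 overlapped. The log2 difference of Cdc25b between heterozygous and wild type was 0.68 ± 0.17 and did not pass (limma adjusted p = 0.199). The other probe that passed, for cyclin A1, the germ-line relative of cyclin A2 (limma adjusted p = 0.0145), lay under the olfactory receptor level on all 6 arrays, at 3.7 to 16.6. So near background, a change in transcript level cannot be judged from the fitted difference. That difference was -2.06 on the log2 scale and -0.70 when 16 was added before the log, and without a homozygous or a heterozygous array its adjusted p was 0.0779 to 0.141.

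**Figure D3:**
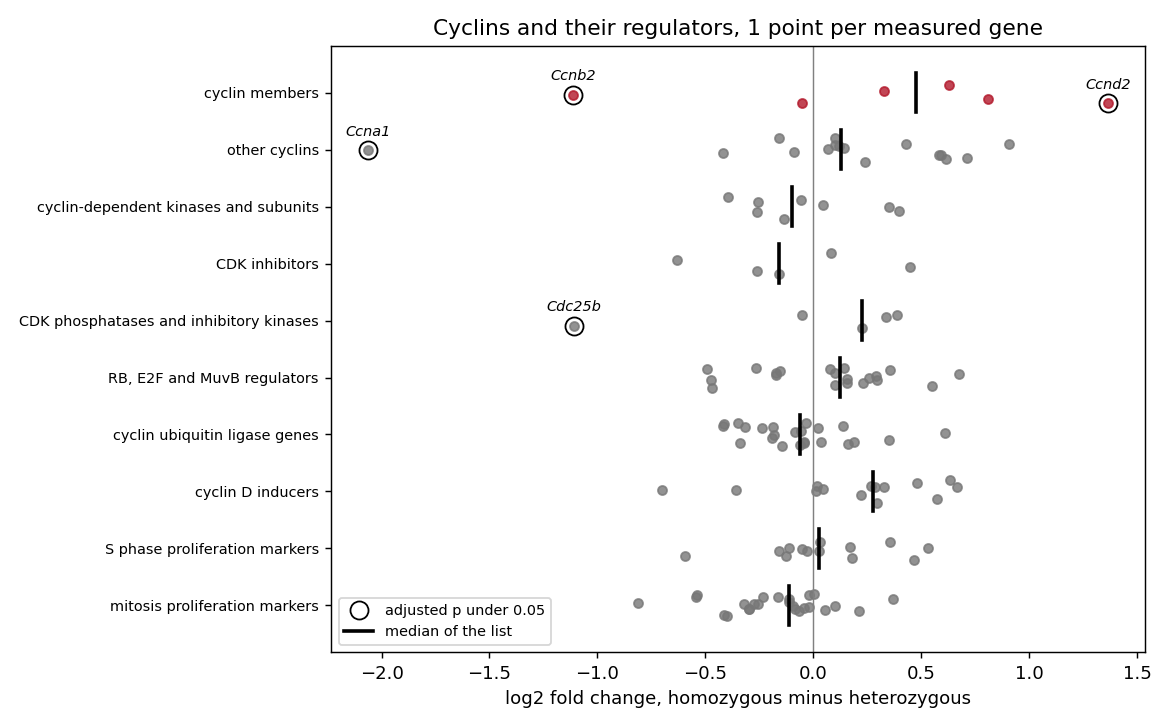
Log2 fold change between homozygous and heterozygous for the measured cyclins (red) and for 9 lists of regulators (grey), 1 point per gene, with a black bar at the list's median and rings at an adjusted p under 0.05. Rings mark Ccnd2, Ccnb2, Ccna1 and Cdc25b, and the medians of the regulator lists lie between -0.16 and 0.28.

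The kinases that the cyclins activate are named here for that role, after their values were seen. Cdk4, partner of the D-type cyclins, read 5365 and 5108 in homozygous arrays, 5406 and 4775 in heterozygous arrays and 4632 and 5479 in wild-type arrays. Cdk1, partner of cyclin B2, read 3550 and 3613 in homozygous arrays, 4290 and 4305 in heterozygous arrays and 3338 and 3833 in wild-type arrays. Cdk2 read between 73.7 and 181.9 over the 6 arrays, and Cdk6 lay under the olfactory receptor level on every array. No kinase or kinase subunit of 8 measured passed the limma threshold in any comparison. At an unadjusted p under 0.05 there were 0 between homozygous and wild type, 0 between heterozygous and wild type and 1 between homozygous and heterozygous. The shares of all tested probes were 19%, 13.5% and 18.2% in the same order. The 1 was Cdk3, named after its values were seen, which read 6.7 to 9.9, under the olfactory receptor level on every array. Of the 5 measured inhibitors of these kinases none passed with limma, and none had an unadjusted p under 0.05 in any comparison. The p21 gene Cdkn1a, which was named after its values were seen, read 1004 and 1197 in homozygous arrays, 878.4 and 733.6 in heterozygous arrays and 690.4 and 1053 in wild-type arrays, with homozygous and wild-type arrays overlapping.

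Markers of cycling cells were listed beside the cyclins. Of 13 measured S phase genes none passed the limma threshold in any comparison. At an unadjusted p under 0.05 there were 2 between homozygous and wild type, 0 between heterozygous and wild type and 1 between homozygous and heterozygous, and in the same order the medians were 0.09, 0.12 and 0.03 on the log2 scale. Of 25 measured mitosis genes, which do not include Ccnb2, none passed either. The 5, 1 and 4 genes at an unadjusted p under 0.05, in the same order, compare with 19%, 13.5% and 18.2% of all tested probes. Their log2 differences lay below 0 in 18 of 25 genes between homozygous and wild type, with a median of -0.15, and in 20 of 25 between homozygous and heterozygous, with a median of -0.11. The proliferation marker Mki67, named after its values were seen, read 732.8 and 825.0 in homozygous arrays, 654.2 and 951.7 in heterozygous arrays and 701.4 and 759.7 in wild-type arrays. Its arrays overlapped in all 3 comparisons. In such bulk samples fewer cycling cells and less transcript per cell cannot be told apart.

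A list of 14 measured genes upstream of D-type cyclins, 13 of them listed as inducers and 1, Gsk3b, known for promoting cyclin D1 turnover, held no member past the limma threshold in any comparison. At an unadjusted p under 0.05 there were 3, 2 and 2 in the same order, beside 19%, 13.5% and 18.2% of all tested probes. Among them was Gsk3b between homozygous and wild type (-0.76 ± 0.19, limma adjusted p = 0.129), a value picked out after it was seen. The median log2 difference of the 14 genes was 0.25 between homozygous and wild type and 0.28 between homozygous and heterozygous, with 11 of 14 and 12 of 14 above 0. Of the 14, 9 exceeded the olfactory receptor level on all arrays, and 4, Mycn, Fosl1, Gli1 and Gli2, lay under it on all arrays. The list holds Fos, whose intensity was higher on the arrays numbered 2: 240.6 and 3210 in homozygous arrays, 281.4 and 1243 in heterozygous arrays and 271.9 and 903.4 in wild-type arrays. Egr1 and Junb of the list were higher there too under every label, most of all in homozygous arrays (1105 and 3688 for Egr1, 86.3 and 268.2 for Junb). Among 20 measured genes of the RB, E2F and MuvB regulators, which set when cyclin E, A and B genes are read, and among 23 of the ubiquitin ligases that destroy cyclins, none passed. At an unadjusted p under 0.05 there were 3, 1 and 2 of the first and 2, 1 and 3 of the second, in no case a larger share than that of all tested probes. The Cdc20 gene, an activator of the ligase that destroys cyclin B and named after its values were seen, read 2445 and 2446 in homozygous arrays, 3087 and 3139 in heterozygous arrays and 3122 and 3265 in wild-type arrays. Both homozygous arrays lay under the others, as for Ccnb2, but its log2 difference against wild type was -0.38 ± 0.14 and did not pass (limma adjusted p = 0.217).

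Markers of other cells that the cultures could hold differed between the labels too. The summed intensity of 8 measured neuron markers was 5245 and 5184 in homozygous arrays, 4037 and 5364 in heterozygous arrays and 2020 and 2002 in wild-type arrays. Of the 8, 6 (Tubb3, Dcx, Map2, Stmn2, Snap25 and Syt1) lay under the olfactory receptor level on all arrays. Most of each sum therefore came from Elavl4 and Gap43. The median log2 difference over the 8 was 0.44 between homozygous and wild type and 0.0076 between heterozygous and wild type. Between homozygous and heterozygous it was 0.18. That of 6 astrocyte markers was 2188 and 2007 in homozygous arrays, 3402 and 3356 in heterozygous arrays and 1553 and 2137 in wild-type arrays, with Gfap, Aldh1l1 and Slc1a2 under that level. For 8 mesenchymal, meningeal and mural markers it was 204.8 and 236.8 in homozygous arrays, 409.2 and 401.5 in heterozygous arrays and 1353 and 1063 in wild-type arrays, and 7 of the 8, all but Acta2, lay under that level. The 5 measured microglia markers summed to 128.2 to 171.0 and the 1 endothelial marker read 13.3 to 25.9. The oligodendrocyte lineage list of 6 summed to 13448 and 11208 in homozygous arrays, 11131 and 12973 in heterozygous arrays and 9769 and 10270 in wild-type arrays. Of the single markers, Elavl4 was higher in homozygous than in wild-type (1.40 ± 0.19 on the log2 scale, limma adjusted p = 0.0403) and heterozygous arrays (1.27 ± 0.19, 0.0305), and Gap43 was higher in homozygous (1.44 ± 0.19, 0.0354) and heterozygous (1.32 ± 0.19, 0.0464) than in wild-type arrays. Acta2 was lower in homozygous than in wild-type (-3.36 ± 0.22, limma adjusted p = 0.00583) and heterozygous arrays (-1.46 ± 0.22, 0.0325), and lower in heterozygous than in wild-type arrays (-1.90 ± 0.22, 0.0264). Between homozygous and wild type, 6 of 8 neuron markers lay above 0 and 2 below, and 0 and 8 of the mesenchymal list. Between heterozygous and wild type these counts were 4 and 4, and 2 and 6. Between homozygous and heterozygous they were 7 and 1, and 3 and 5. Of all tested probes, 0.431% rose and 0.489% fell in the first comparison and 0.411% and 0.338% in the second. In the third, 1.26% rose and 1.43% fell. Calls on Aqp4, P2ry12 and Cx3cr1 rested on probes near or under the olfactory receptor level. The part of these markers in the cyclin results was not tested.

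The genes whose log2 values followed a cyclin most closely were taken from 3424 named probes above the olfactory receptor level that spanned at least 0.5 on the log2 scale. The measure was Pearson's r over the 6 arrays, which share labels and scaling, and it is given as a description. Closest to Ccnd2 were Trmt10c (0.991), which encodes a subunit of mitochondrial RNase P, the collagen gene Col8a2 (0.991) and the axonemal dynein gene Dnah8 (0.991). Closest to Ccnb2 were the adaptor gene Bcar1 (0.999), Tmem50b (0.994) and the metalloprotease gene Adam9 (0.993), and none of these is a gene of the mitosis list. Closest to Ccne1 were the fatty acid elongase gene Elovl2 (0.993), Morc2a (0.990) and Spsb4 (0.989), and closest to Ccnd3 were Traf4 (0.996), the histone gene H4c1 (0.989) and Cd3eap (0.983). For Ccne2 they were Mlf1 (0.974), Arfip2 (0.967) and Canx (0.964), and for Ccna2, searched over 3425 probes, Serinc1 (0.955), Gpm6a (0.951) and Acbd5 (0.937). Among pairs of cyclins, r over the 6 arrays was highest for Ccnd2 and Ccne1 (0.944) and lowest for Ccne1 and Ccnb2 (-0.959). It was nearest to 0 for Ccne1 and Ccna2 (-0.056). These pairs were picked by their values.

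**Figure D4:**
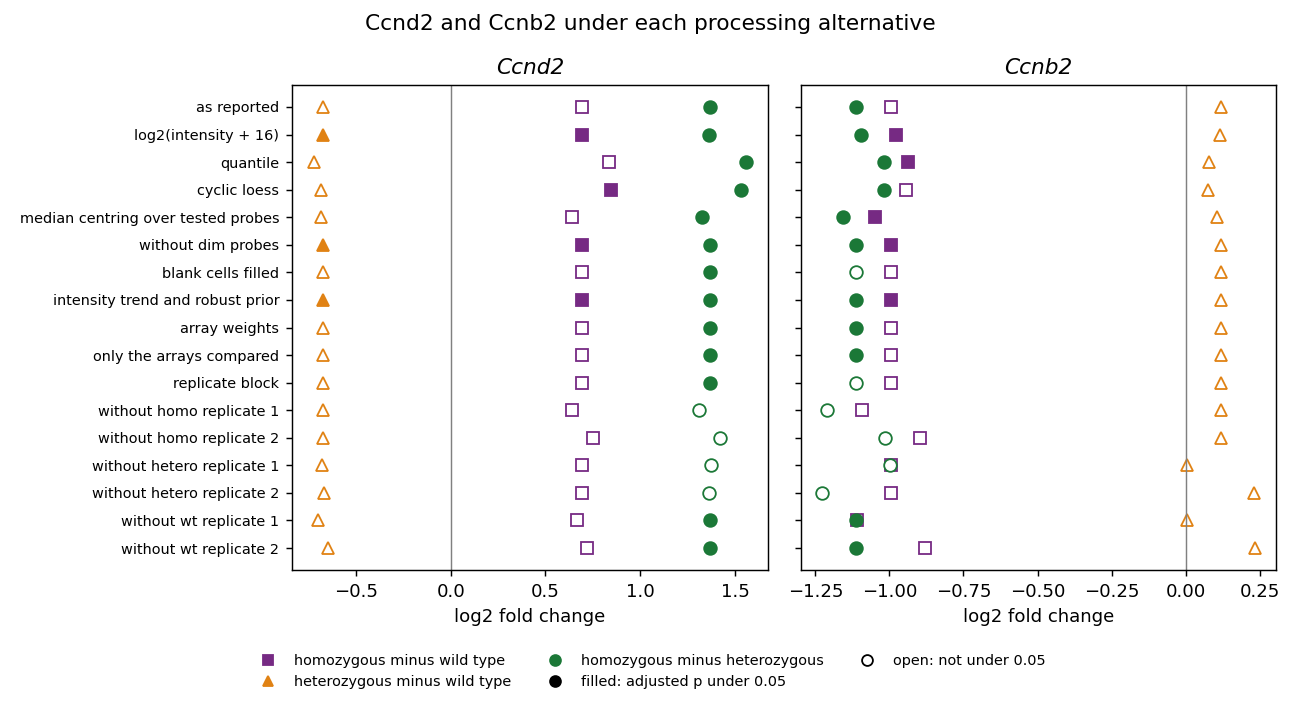
Log2 fold changes of Ccnd2 (left) and Ccnb2 (right) in 3 comparisons as reported and under 16 processing alternatives, with filled symbols where the adjusted p was under 0.05 and open symbols where it was not (homo, hetero and wt are the 3 Ecrg4 labels). Every symbol of a comparison stays on its side of 0, while the calls of Ccnd2 and Ccnb2 between homozygous and heterozygous hold in 12 and 10 of 16 alternatives. The 16 are not all distinct, because leaving out an array of the label not compared repeats the fit of only the arrays compared.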

How the data were processed

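Transcript levels were measured on 1-colour arrays of 6 samples, 2 for each Ecrg4 label. Per the labels' protocols, RNA from an RNeasy Mini Kit was turned into amino allyl aRNA and coupled to a Cy dye, although the label field says biotin. The authors deposited linear intensity values with a median of 30 per array. Neither the software nor any background correction nor the rule behind blank cells is given in the sources used here. Log2 intensities of the 20434 probes measured on all arrays, of 23466, were fitted by limma 3.58.1 (R 4.3.3) with 1 coefficient per label, which left 3 residual degrees of freedom, and moderated with eBayes. P-values are two-sided and Benjamini-Hochberg adjusted over these probes. Gene symbols of the probe annotation were updated through RefSeq synonyms (GRCm38.p6): 16625 probes had 1 symbol, of which 3943 were replaced and 59 matched several RefSeq genes, and 6841 had none, with the brightest probe standing for a gene in the lists. The genes named were the cyclins, Ecrg4, list members past the threshold and the 3 genes most correlated with each cyclin; genes named after their values were seen are marked. The cyclins and lists were chosen with earlier results of these data known. On simulated arrays, for homozygous minus wild type over 20434 probes, the fit recovered 98% of changes of 3 log2 units, 80% of 2, 32% of 1 and 0% of 0.5, and 11 of 116 calls were false. Each simulated probe took its own observed spread, and the changed probes were picked at random whatever their brightness. These rates therefore need not hold for the cyclin probes or for the other comparisons. Alternatives covered the pseudocount, scaling, dim probes, blank cells, the prior, array weights, the arrays fitted, a replicate block and leaving out each array. For a comparison of 2 labels, leaving out either array of the third label gives the same result as fitting only the arrays compared. Counts of alternatives therefore hold that result more than once.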

Additional observations from a re-analysis of the deposited data

How the results depend on the processing

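Of the log2 differences of the 6 cyclins, only that of Ccna2 between homozygous and heterozygous changed sign under any of 16 alternatives: it was 0.054 after quantile and 0.061 after cyclic loess scaling, and from -0.12 to 0.022 without 1 array (0.022 without homozygous array 2 and 0.010 without heterozygous array 2), against -0.050 as reported. Calls depended more on the settings. The cyclins past the threshold numbered 0 between homozygous and wild type, but 2 with 16 added before the log, without dim probes or with a robust prior that follows intensity (the trend), and 1 under quantile, cyclic loess or median centring. Between heterozygous and wild type they numbered 0, but 1 with 16 added, without dim probes or with the trend. Between homozygous and heterozygous they numbered 2, but 4 with 16 added, without dim probes or with the trend, 3 with array weights, and 1 with blank cells filled or the replicate block. By the F test they numbered 2, but 3 with 16 added, without dim probes or with the trend, 1 with blank cells filled or array weights, and 0 with the replicate block. Leaving out 1 array gave 0 in both comparisons with wild type, 0 to 2 between homozygous and heterozygous and 0 to 1 by the F test.

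Over all probes, 188 passed between homozygous and wild type, against 1143 with 16 added, 328 after quantile, 313 after cyclic loess and 314 after median centring, 875 without dim probes, 88 with blank cells filled, 1094 with the trend, 89 with array weights, 59 with only the arrays compared and 47 with the replicate block. Between heterozygous and wild type 153 passed, against 306 with 16 added, 400 with the trend, 100 with array weights, 40 with only the arrays compared and 51 with the block. Between homozygous and heterozygous 549 passed, against 1376 with 16 added, 998 without dim probes, 320 with blank cells filled, 1357 with the trend, 1261 with array weights and 244 with the block. By the F test 462 passed, against 1493 with 16 added, 721 after median centring, 1032 without dim probes, 266 with blank cells filled, 1582 with the trend, 285 with array weights and 166 with the block. Without 1 array the counts ran from 1 to 224, 18 to 340, 6 to 680 and 24 to 843 in the same order, with 1 and 6, both without a homozygous array, as the lowest for homozygous against wild type and against heterozygous. A lone array was then assumed to vary like the other labels. In a check of pairing, differences between arrays 1 and 2 correlated across probes at 0.01 (homozygous and wild type), 0.02 (heterozygous and wild type) and -0.08 (homozygous and heterozygous), so equal numbers were not taken as pairs. Even so, 4 probes were at least 2-fold higher on array 2 under all 3 labels, and others, Ccne1 among them, were higher there by less. How many of all tested probes were so by less was not counted. Dim probes limit what can be said of cyclin A1, Cdk6 and the markers under the olfactory receptor level.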

Other observations

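Array numbers shared 1 feature that the labels do not explain. The immediate early gene Fos read 3210, 1243 and 903.4 on the arrays numbered 2 of the homozygous, heterozygous and wild-type labels, against 240.6, 281.4 and 271.9 on the arrays numbered 1. Nr4a1, another immediate early gene, read 1892, 440.5 and 434.3 on arrays 2 in the same order, against 125.3, 125.5 and 154.4 on arrays 1. Of 20434 tested probes, 4 were at least 2-fold higher on array 2 than on array 1 under all 3 labels, and they include Fos, Nr4a1 and Ccn1, which despite its symbol is a matricellular protein gene and no cyclin; 0 probes were so in the other direction. These genes were picked after their values were seen, and whether this difference has a part in the cyclin results was not tested. Of the 6 cyclins, Ccne1 was higher on array 2 under all 3 labels, at 397.7, 257.2 and 287.4 on arrays 2 in the same order, against 364.3, 235.9 and 271.3 on arrays 1. The other cyclins differed in direction between labels. The share of all tested probes that were higher on array 2 by any amount under all 3 labels was not counted, so the Ccne1 order is given as a description only.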
